A study of Homo sapiens with 8 samples.

Results

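Genomic sites bound by mTOR were compared between androgen-treated prostate cancer cells with a hairpin against FoxA1 and the same cells with an empty hairpin vector. The cells were LNCaP, an established androgen-responsive human prostate cancer line. Each library came from chromatin immunoprecipitation with sequencing, in which DNA cross-linked to a protein is recovered with an antibody and read. The library shFoxA1 R1881 carried the short hairpin RNA against FoxA1, and the library shEV R1881 carried the empty vector. Both cultures were kept in 2% charcoal-stripped serum for 48 h to remove androgen. They then received the synthetic androgen R1881 at 10 nM over 24 h. The matching vehicle libraries, shFoxA1 EtOH and shEV EtOH, received 0.1% ethanol in its place. There was 1 library for each combination, so no difference has a replicate check and no p-value is given. The cells with each hairpin are 1 culture, and the deposited peak lists do not measure FoxA1 itself, so the depth of the knockdown is not shown by them.

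A peak is a stretch of genome where the authors' peak caller found more reads than background. The members are the 65644 peaks on chromosomes 1 to 22, X and Y in the lists of the 2 R1881 libraries, of 125713 peaks in the 4 mTOR libraries. A peak of shFoxA1 R1881 with no shEV R1881 peak overlapping it by 1 bp or more was called gained. A peak of shEV R1881 with none from shFoxA1 R1881 was called lost, and overlapping peaks were called shared. These words describe presence in thresholded lists and not a measured difference in occupancy. The shEV R1881 list held 26074 peaks covering 14.5 Mb, and the shFoxA1 R1881 list held 39570 covering 23.6 Mb. Of the shFoxA1 R1881 peaks, 20899 were gained (52.8%). Of the shEV R1881 peaks, 7263 were lost (27.9%) and 18811 were shared (72.1%), the shared ones facing 18671 peaks of the other list. Gained peaks thus made up 74.2% of all gained and lost peaks. No read totals accompany the lists, so more bound sites and a deeper or more enriched library cannot be told apart as sources of the longer list. For that reason the main comparisons are repeated with the shFoxA1 R1881 list shortened to its 26074 highest-scoring peaks, called equal lengths below. At equal lengths 9996 peaks were gained (38.3%) and 9793 were lost (37.6%), and 50.5% of the changed peaks were gained. Lists of 1 length have nearly equal gained and lost counts by construction, so this even split is not a result. The 9793 lost peaks also include some whose shFoxA1 R1881 partners were cut from the list.

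mTOR is a serine/threonine kinase that senses nutrients and growth factors and drives ribosome production, protein synthesis and metabolism. A share of it is found in the nucleus, where it has been described on chromatin in prostate cancer cells that respond to androgen. FoxA1 is a pioneer factor of the forkhead family, which binds closed chromatin at short AT-rich motifs and opens it, mostly at distal enhancers. In prostate cells it is needed for much of the transcriptional response to androgen.

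The sequences below are shown because base composition differed between gained and lost peaks taken as a whole. They are single promoters and do not stand for that difference. They are the 250 bases before the start site of 6 genes, in RefSeq for GRCh38.p14, written 5′ to 3′ on the gene's strand with each CG dinucleotide in capitals. COX19 and NIPA1 held 2 of the highest-scoring gained promoter peaks, and MPC2 and GPX8 were assigned 2 of the highest-scoring lost ones. The peaks at COX19, NIPA1 and GPX8 overlap the printed bases, and the lost peak assigned to MPC2 does not. FOXA1 and KLK2 were added after their values were seen, because their promoter windows were overlapped in shFoxA1 R1881 and not in shEV R1881. TMEM39B and MAPKAPK2 belonged to the same sets and are named only.
COX19, gained, chr7:975550-975799, minus strand: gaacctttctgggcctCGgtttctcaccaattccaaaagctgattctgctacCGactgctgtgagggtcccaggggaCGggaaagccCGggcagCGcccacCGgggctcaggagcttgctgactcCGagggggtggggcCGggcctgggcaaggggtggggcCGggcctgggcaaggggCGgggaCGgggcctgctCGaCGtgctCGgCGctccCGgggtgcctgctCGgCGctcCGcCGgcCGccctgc
NIPA1, gained, chr15:22786394-22786643, plus strand: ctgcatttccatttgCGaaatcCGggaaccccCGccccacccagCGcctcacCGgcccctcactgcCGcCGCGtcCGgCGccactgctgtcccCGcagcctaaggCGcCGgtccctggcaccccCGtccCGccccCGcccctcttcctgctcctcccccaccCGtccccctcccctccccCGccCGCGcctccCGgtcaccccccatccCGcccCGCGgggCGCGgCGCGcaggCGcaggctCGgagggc
FOXA1, gained, chr14:37595250-37595499, minus strand: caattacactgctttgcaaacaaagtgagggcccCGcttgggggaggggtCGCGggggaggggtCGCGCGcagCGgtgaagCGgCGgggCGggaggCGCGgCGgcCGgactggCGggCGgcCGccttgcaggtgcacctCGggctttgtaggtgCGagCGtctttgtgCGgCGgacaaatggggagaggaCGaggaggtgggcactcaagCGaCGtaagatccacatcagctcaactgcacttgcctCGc
KLK2, gained, chr19:50873189-50873438, plus strand: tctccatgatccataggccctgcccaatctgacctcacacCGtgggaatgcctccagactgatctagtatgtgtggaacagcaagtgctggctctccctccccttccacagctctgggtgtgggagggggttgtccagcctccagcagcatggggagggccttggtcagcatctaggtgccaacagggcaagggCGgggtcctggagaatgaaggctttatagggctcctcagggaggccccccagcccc
MPC2, not overlapped by the lost peak, chr1:167935997-167936246, minus strand: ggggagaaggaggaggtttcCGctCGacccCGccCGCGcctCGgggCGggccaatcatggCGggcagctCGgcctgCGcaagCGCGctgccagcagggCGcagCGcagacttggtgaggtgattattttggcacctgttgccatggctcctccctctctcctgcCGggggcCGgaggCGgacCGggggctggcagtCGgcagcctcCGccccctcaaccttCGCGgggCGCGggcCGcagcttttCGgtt
GPX8, lost, chr5:55159921-55160170, plus strand: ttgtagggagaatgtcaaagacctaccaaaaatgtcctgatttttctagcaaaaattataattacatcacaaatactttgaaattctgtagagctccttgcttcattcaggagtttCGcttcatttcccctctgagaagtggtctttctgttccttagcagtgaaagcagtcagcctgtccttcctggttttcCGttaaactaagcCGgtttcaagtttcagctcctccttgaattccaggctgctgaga
COX19 held 21 CG dinucleotides in these 250 bases at a GC content of 72.4%, and NIPA1 held 30 at 78.4%. FOXA1 held 26 at 67.2%. KLK2 held 2 at 61.2%, so a gained promoter need not be rich in CG. MPC2 held 26 at 71.6%, as many as FOXA1. GPX8 held 3 at 41.2%. Its peak had the lowest GC content of the 5 highest lost promoter peaks. Their median of 67.8% was above the 62.4% of the 5 highest gained ones.

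Gained sites were richer in G and C than shared sites, and lost sites were poorer. The median GC content was 46% for gained, 43.6% for shared and 40.4% for lost peaks. At equal lengths the medians were 45.1%, 43.6% and 41.0%, in the same order. Among the 10000 highest-scoring peaks of each list they were 46.2%, 43.1% and 39.6%. Peaks with at least 60% GC made up 19.3% of the gained set (Wilson 95% interval 18.7 to 19.8) and 7.53% of the lost set (6.95 to 8.16). These intervals, and all others given here, cover counting error only. At equal lengths the shares were 17.5% and 10.1%. CG dinucleotides followed the same order, with a median of 1.16% of positions in gained and 0.682% in lost peaks.

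**Figure D1:**
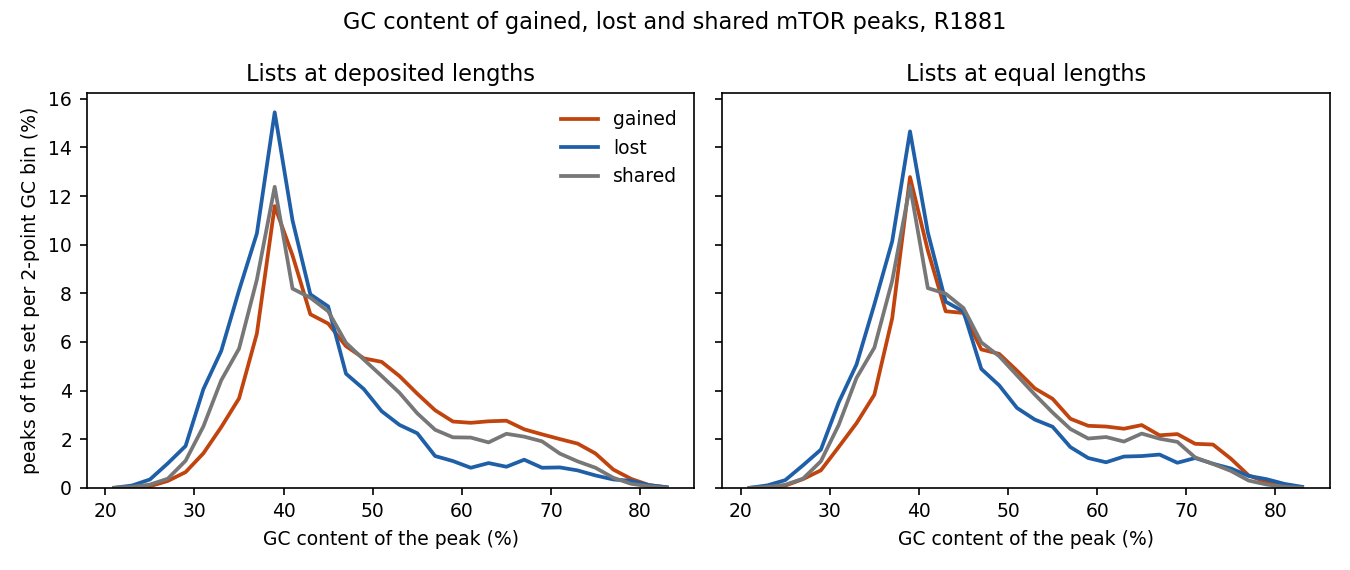
GC content (%) of gained, lost and shared peaks in the R1881 libraries, as the percentage of each set per bin of 2 GC points. The lists are as deposited (left) and at equal lengths (right), and shared peaks are those of shFoxA1 R1881. Every set has its mode just under 40% GC, the lost curve is highest there, and the gained curve is the highest around 60% GC (medians 46% gained, 43.6% shared, 40.4% lost).

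The share of peaks that changed moved with GC content in opposite directions in the 2 lists. Below 35% GC, 35.4% of shEV R1881 peaks were lost and 39.5% of shFoxA1 R1881 peaks were gained, or 1.13 gained peaks for each lost one. Between 60% and 65% GC, 16.1% were lost and 60.4% were gained, or 8.62 gained for each lost. At 65% GC and over the ratio was 6.82, so it did not keep rising. With equal lengths this ratio ran from 0.493 below 35% GC to 2.14 between 60% and 65%, and was 1.61 above that. With lists of 1 length, peaks under 40% GC were therefore lost more often than gained, and peaks of 45% GC and more were gained more often than lost. Part of the equal-length losses come from the cut itself, which raised the lost peaks from 7263 to 9793 over all GC contents together.

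**Figure D2:**
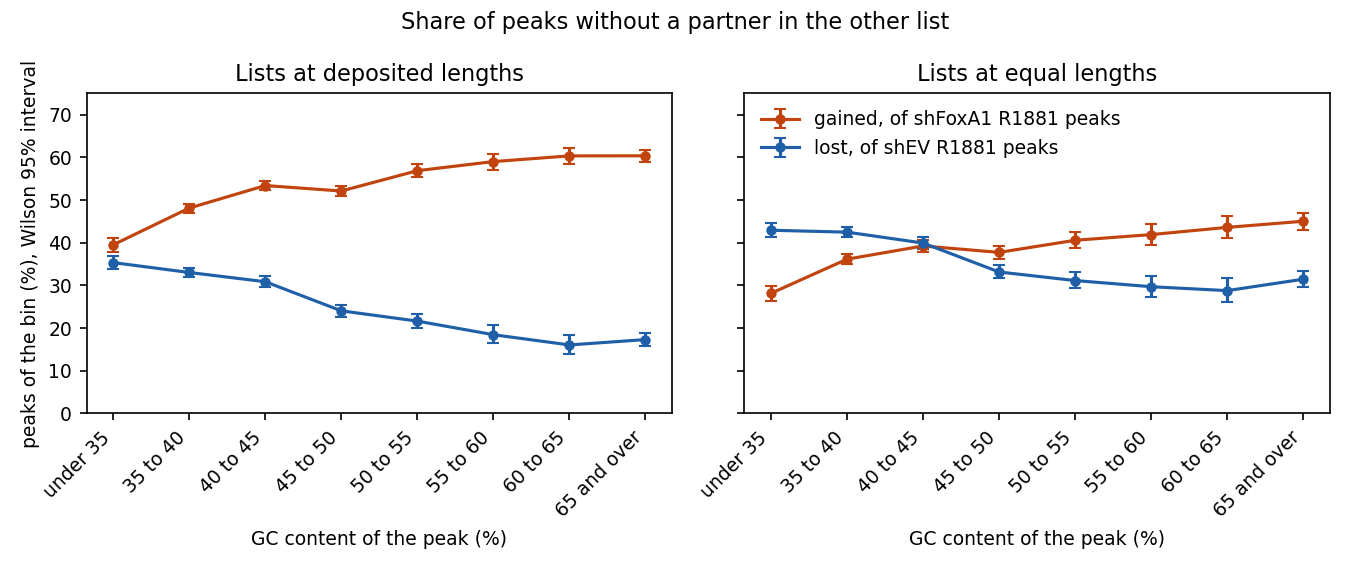
Percentage of shFoxA1 R1881 peaks that were gained and of shEV R1881 peaks that were lost, by GC content of the peak, with Wilson 95% intervals (counting error only), at deposited (left) and equal (right) lengths. The gained share rises from 39.5% to 60.4% with GC content and the lost share falls from 35.4% to 17.3%, and at equal lengths the lines cross between 40% and 45% GC.

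Promoters followed the GC order. Promoter peaks, as the deposited annotation defines them, were 12% of gained peaks (11.6 to 12.5), 10.3% of shared shFoxA1 R1881 peaks and 4.82% of lost peaks (4.35 to 5.34). Of the 2321 promoter peaks in shEV R1881, 350 were lost (15.1%). Of the 4426 in shFoxA1 R1881, 2512 were gained (56.8%), or 7.18 for each lost one. With equal lengths 27.6% were lost and 42.1% gained, a ratio of 1.82. Peaks in 5′ untranslated regions had a ratio of 7.44 and peaks in 3′ untranslated regions one of 3.29. With equal lengths 98 were gained and 49 lost in 5′ regions, and 48 and 56 in 3′ regions (0.857). Introns had 2.75 gained peaks for each lost one and intergenic sequence 2.41, and at equal lengths these fell to 0.983 and 0.921.

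GC content also ordered the peaks inside each kind of place. Promoter peaks of at least 50% GC had 8.25 gained for each lost, against 2.81 for promoter peaks below 50%. Intronic peaks outside repeats had 6.65 against 2.41, intergenic peaks outside repeats 5.92 against 2.46, and peaks in repeats 4.58 against 2.06. The promoter ratios at equal lengths were 2.02 and 0.725, and the repeat ratios 1.41 and 0.852. GC-poor promoters were thus lost more often than gained once the lists had 1 length.

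Distance to the start site gave the same picture from another column. Within 1 kb of a transcription start site 16.1% of shEV R1881 peaks were lost and 57.8% of shFoxA1 R1881 peaks gained. Beyond 100 kb, 29.5% were lost and 48.7% gained. The gained peaks per lost peak were 7.07 and 2.25 in these 2 zones. At equal lengths they were 1.71 and 0.917.

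Repeats made up 71.8% of lost peaks (70.7 to 72.8), 67.1% of shared shFoxA1 R1881 peaks and 57.4% of gained peaks (56.7 to 58.1). LINE elements, long retrotransposons that are AT-rich for much of their length, were 44.9% of lost and 31.7% of gained peaks, and 42.1% and 34.4% at equal lengths. Young L1 elements (L1HS and L1PA2 to L1PA8), whose copies are so alike that reads are hard to place, were 19.5% of lost, 16.5% of gained and 11.9% of shared shFoxA1 R1881 peaks. At equal lengths they were 18.1% of both lost and gained peaks and 11.4% of shared ones. In L1PA3, 41.8% of shEV R1881 peaks were lost and 63.6% of shFoxA1 R1881 peaks were gained, and the shares at equal lengths were 52.5% and 51.7%. Peaks of this family thus changed in both directions.

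LTR elements, the remains of endogenous retroviruses, were most frequent among shared peaks. They made up 21.3% of shared shFoxA1 R1881 peaks against 11.8% of gained and 12.3% of lost peaks, and 22.9% against 14.8% and 12.1% at equal lengths. In MER11A, an LTR of the ERVK group, 6.96% of shEV R1881 peaks were lost and 17.4% of shFoxA1 R1881 peaks gained. MER11B had 6.78% and 17.4%, and THE1D-int had 9.33% and 29.4%. With equal lengths MER11A had 10.8% lost and 13.9% gained, and THE1D-int 17.1% and 22.7%. Alpha satellite, the repeat of centromeres, had 20% lost and 31.1% gained, and the order turned at equal lengths (29.0% and 20.9%). Of the 58 peaks annotated to tRNA genes in each list, 1 was lost and 7 were gained. Fewer peaks thus changed in these repeat groups than in L1PA3, in both libraries.

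**Figure D3:**
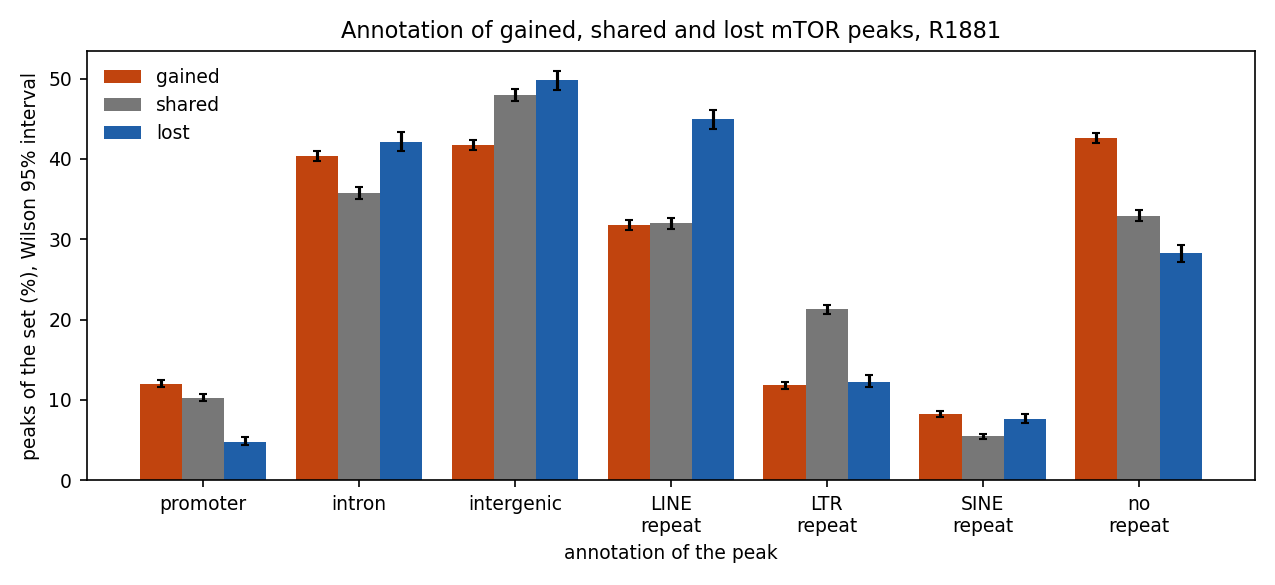
Percentage of gained, shared (shFoxA1 R1881 peaks) and lost peaks in each annotated class, with Wilson 95% intervals (counting error only); a peak has 1 place and may also lie in a repeat. Promoters make up 12% of gained and 4.82% of lost peaks, LINE repeats 31.7% and 44.9%, and LTR repeats are highest among shared peaks at 21.3%.

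Changed peaks were mostly the weak ones of their list. The deposited score ranks peaks within a list and is not compared between lists. The median score was 42 for lost and 76 for shared peaks of shEV R1881, and 41 for gained and 102 for shared peaks of shFoxA1 R1881. With each list cut into 10 equal groups by score, in the highest group 15 of 2607 shEV R1881 peaks were lost (0.575%) and 62 of 3957 shFoxA1 R1881 peaks were gained (1.57%). In the lowest group the shares were 59.5% and 87.9%. Changed peaks were also narrower, with medians of 368 bp for lost and 408 bp for gained against 489 and 575 bp for shared peaks. Near the edge of the rule, 41 gained peaks missed a shEV R1881 peak by a gap under 50 bp, with a median score of 34 and a median GC of 51.6%. Just inside it, 57 shFoxA1 R1881 peaks overlapped by 50 bp or less, with a median score of 34 and a median GC of 51.4%. In shEV R1881, 50 lost peaks lay just outside (score 34, GC 46%) and 68 shared ones just inside (score 27, GC 50.3%).

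Near coding genes, the strongest sites were shared. In shFoxA1 R1881 the highest scores at named coding genes were 9066 at DUX4, which lies in the subtelomeric repeats of chromosome 4, and 8664 at NPAS4, an activity-induced transcription factor. They were followed by 7452 at ARHGEF18, a guanine nucleotide exchange factor, 4435 at KCTD2, a ubiquitin ligase adaptor, and 4224 at TXNL4A, a splicing factor. DUX4, NPAS4, ARHGEF18 and TXNL4A were also among the top 5 of shEV R1881, where GALR1, a galanin receptor, took the place of KCTD2 at 2741. All of these sites were also in both EtOH lists. Away from coding genes, a lost peak of shEV R1881 in a simple repeat scored 3242, above TXNL4A (3101) and GALR1 in that list.

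Among peaks assigned to coding genes within 50 kb, 8 of the 10 highest-scoring gained peaks outside repeats lay at promoters. Of all gained peaks outside repeats, whatever their nearest gene, 28.2% were promoter peaks. COX19, a copper chaperone for cytochrome oxidase assembly, led with a score of 384 for a promoter peak at 70% GC. TMEM39B, a membrane protein gene, and NIPA1, a magnesium transporter, followed with 332 each. OSBPL11, a lipid-binding protein, and USP5, a deubiquitinase, had 306 each. NPEPPS, the puromycin-sensitive aminopeptidase, had 294 in its first exon, at 75.3% GC. C1orf159 and C8orf74 had 269 each, the latter in an intron at 57.5% GC. BZW2, a regulator of translation initiation, and TRIM13, a ubiquitin ligase, had 257 each. All 10 were present in both EtOH lists, so the empty-vector cells also had these peaks in vehicle. This does not extend to other genes: a gained peak assigned to the non-coding gene FAM87B, named after its value was seen, also scored 384 and was in neither EtOH list. The peak over the COX19 promoter, for example, scored 203 within the shEV EtOH list and 361 within the shFoxA1 EtOH list.

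The 10 highest-scoring lost peaks outside repeats, chosen in the same way, lay elsewhere. They were in introns or between genes, none was at a promoter, and their GC ran from 26.9% to 54.8% with a median of 37.2%. Promoter peaks were 17.1% of all lost peaks outside repeats. ADI1, an enzyme of methionine salvage, and CEP89, a centrosome protein, led with 214 each. ORC5, a subunit of the origin recognition complex, and WWOX, an oxidoreductase in a fragile site, had 179 each. STRBP, an RNA-binding protein, and ARHGAP6, a GTPase-activating protein, had 168 each. NPNT, an extracellular matrix protein, LECT2, a secreted liver protein, and NFIX, a nuclear factor I protein that acts with FoxA1 at prostate enhancers, had 157 each. HMCN1, a matrix protein, had 135. Only those nearest ADI1 and STRBP were found in the EtOH lists, in both of them, and the other 8 were in neither.

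The highest lost promoter peaks at coding genes scored 95 or less. MPC2, a subunit of the mitochondrial pyruvate carrier, MAPKAPK2, a kinase downstream of p38, GPX8, a peroxidase of the endoplasmic reticulum, and KIZ, a centrosome protein, had 95 each. ARHGEF16, another exchange factor, had 85. These 5 peaks had a median GC of 67.8% (39.5% at GPX8 to 72.4%). The 5 highest gained promoter peaks had a median of 62.4% (61.3% to 70%). The MPC2 peak lay at chr1:167936709-167937255, beyond the sequence printed above, and the GPX8 peak at chr5:55159724-55160090. With repeats included, the highest gained peak scored 729 and the highest lost one 3242, both in simple repeats.

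Some genes collected many changed peaks. PRKD1, the gene of protein kinase D1, had 10 gained and 3 lost peaks within 50 kb of a start site, beside 4 shared in shEV R1881. SEPTIN9, a cytoskeletal GTPase, had 10 gained, none lost and none shared, with scores from 20 to 153. Of those 10 peaks, 3 were in the shEV EtOH list and 2 in the shFoxA1 EtOH list. KIAA1217 and PPFIA2, a synaptic scaffold gene, had 9 gained each, PPFIA2 beside 9 shared. ABR, GRHL2 (an epithelial transcription factor) and NEDD4L (a ubiquitin ligase) had 8 each. These counts depended on the list length. At equal lengths PRKD1 had 4 gained and 3 lost, SEPTIN9 5 and 0, KIAA1217 5 and 2, GRHL2 6 and 2, and ABR 2 and 1. PPFIA2 turned to 2 gained and 5 lost, and NEDD4L to 1 and 2. KANSL1, a subunit of a histone acetyltransferase complex, had the most lost peaks with 9, beside 7 gained and 3 shared, and all its lost peaks scored between 14 and 50. With equal lengths its gained peaks fell to 2 and its 9 lost ones stayed. MPC2, NAT1 (an arylamine acetyltransferase) and PDE4D (a cAMP phosphodiesterase) had 5 lost each. CDYL, FHIT, KANK1 and NKX6-2 had 4 each. PDE4D, FHIT and KANK1 had as many gained as lost peaks. The genes run from 2.97 kb (NKX6-2) to 1553 kb (PDE4D) in length, and the counts were not scaled to it.

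At FOXA1 itself, the gene targeted by the hairpin, 4 peaks were gained, 2 were lost and 1 was shared within 50 kb. The shared peak lay in exon 2, at chr14:37592253-37592556 in shEV R1881 (score 34) and chr14:37592333-37592747 in shFoxA1 R1881 (score 41), and was in both EtOH lists. Gained peaks scored 74, 74, 34 and 49, and lost peaks 42 and 20. In addition, a shFoxA1 R1881 peak at chr14:37595312-37595654 (score 49, 68.2% GC) overlapped the FOXA1 promoter sequence printed above. The authors' annotation gives it to TTC6, the neighbour that starts in the opposite direction. The shFoxA1 EtOH list also had a peak over that sequence (score 58), and neither shEV list had one.

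At several androgen target genes the stronger peaks were shared. FKBP5, an immunophilin and a classic androgen-induced gene, had 3 shared peaks that were in neither EtOH list, and 1 gained peak. Its highest shared peak scored 339 in shEV R1881 (chr6:35722391-35722885) and 466 in shFoxA1 R1881, each within its own list. KLK3, which encodes prostate-specific antigen, had 2 shared peaks upstream, scored 85 and 135 in shEV R1881 and 186 and 102 in shFoxA1 R1881. It also had 1 gained peak at its 3′ end, scored 34. SLC45A3, the prostein gene, had 1 shared peak (288 and 164) and 1 gained in its first intron, 445 bp from the start site.

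KLK2 and TMPRSS2 differed from these. KLK2, a kallikrein next to KLK3, had a single peak, gained, at its promoter (chr19:50872976-50873362, score 74), and it was in neither EtOH list. TMPRSS2, a serine protease gene that drives ERG in fusion tumours, had 4 gained peaks, 2 lost and none shared. The lost ones lay at -877 bp from the start site, in the promoter class (score 27), and farther upstream (score 50), and the highest gained one lay at -28446 bp (score 102).

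Gene lists were read against all 20037 coding genes, of which 35.9% had a gained and 13.1% a lost peak within 50 kb of a start site. At equal lengths these shares were 20.2% and 17.5%. Of all gained and lost peaks near coding genes 77.7% were gained, and 53.2% at equal lengths. The lists were drawn up for this tissue with earlier results of these data known.

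Androgen-induced genes had more changed peaks of both kinds than coding genes at large, and no tilt beyond that of all genes. Of 38 genes, 25 had a gained peak (65.8%) and 14 a lost one (36.8%). Their 53 gained and 17 lost peaks make 75.7% gained, near the 77.7% of all genes, and at equal lengths there were 22 of each. They were already well covered, as 78.9% of them had a shEV R1881 peak against 37.5% of coding genes. The highest gained peaks were at MAF, a transcription factor (112, at its promoter), TMPRSS2 (102) and SPDEF, a luminal ETS factor (83). The highest lost ones were at F5, coagulation factor V (85), ZBTB10, a zinc finger repressor (85), and KRT8, a luminal keratin (76). Androgen-repressed genes, 14 in number, had 7 gained and 6 lost peaks, and at equal lengths 5 and 9. Gained peaks there included CCN3, a matricellular protein (112), CDK8, the Mediator kinase (74), and DDC, an amino acid decarboxylase (65). Lost peaks included UGT2B15 (95) and UGT2B28 (85), enzymes that inactivate steroids by glucuronidation, and BCHE, butyrylcholinesterase (58), all 3 in repeats.

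Luminal transcription factors had the highest share of genes with a gained peak of the 13 lists, 21 of 26 (80.8%), with 59 gained and 13 lost peaks. Their counts at equal lengths were 27 and 23, close to the 53.2% of all genes. A lost peak was present at 34.6% of these genes, against 13.1% of all coding genes. At equal lengths 50% had a gained and 46.2% a lost peak, against 20.2% and 17.5%. A shEV R1881 peak was present at 57.7% of them, against 37.5%, so the list was rich in peaks of every kind. The highest gained peaks were at GRHL2 (132), NFIB (122), a nuclear factor I gene, and SOX9 (102), and the highest lost ones at TBX3 (104), a T-box repressor, SPDEF (50) and GATA2 (42), a partner of FoxA1. SPDEF belongs to 2 of the lists. The 23 forkhead genes had 29 gained and 8 lost peaks, and 13 and 11 at equal lengths. FOXJ3 (83), FOXA1 (74) and FOXK2 (74) had the highest gained and FOXN3 (58), FOXA1 (42) and FOXQ1 (34) the highest lost peaks.

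The mTOR pathway tilted toward gained peaks at both list lengths. Its 49 genes had 37 gained and 5 lost peaks (88.1% gained), and 17 and 6 at equal lengths (73.9%, against 53.2% of all genes). The equal-length tilt rests on few peaks, in 1 of 13 lists. A gained peak was present at 23 genes (46.9%, against 35.9% of coding genes) and a lost one at 4 (8.16%, against 13.1%). At equal lengths the shares were 26.5% against 20.2% for gained and 10.2% against 17.5% for lost peaks. SESN1 and SESN2, sestrins that restrain mTORC1, had gained peaks of 112 and 102, and TFEB, the lysosomal factor that mTORC1 phosphorylates, had 102 at its promoter. The highest lost peaks were at RPTOR, the mTORC1 scaffold Raptor (76), SESN1 (50), and FNIP2, a folliculin partner (27). The SESN2 promoter peak was in both EtOH lists, and the TFEB one was in shFoxA1 EtOH and not in shEV EtOH.

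Metabolic lists followed the longer list and mostly levelled at equal lengths, where 53.2% of the changed peaks of all coding genes were gained. Glycolysis (26 genes) had 19 gained and 4 lost peaks, then 10 and 9. Its gained peaks were led by PGK1 (102), HK1 (92, at the promoter) and the glucose transporter SLC2A12 (83), and its lost ones by HK2 (104), GPI (50) and PDK1 (27). The TCA cycle and respiratory chain (36 genes) had 21 and 5, then 9 and 6, with SDHD (92) and COX6C (74) gained and COX6C (104), SUCLA2 (42) and CS, citrate synthase (34), lost. Fatty acid and sterol synthesis (34 genes) had 36 and 10, then 15 of each. FDPS, which makes farnesyl diphosphate, ACSL1, an acyl-CoA synthetase, and SREBF2, the master regulator of sterol synthesis, had gained peaks of 83 each. Lost peaks were highest at ELOVL7 (104), HMGCS1 (50) and ACACA (42).

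Ribosomal protein genes, whose output mTOR controls, had 26 gained and 3 lost peaks over 56 genes, and 11 and 10 at equal lengths. A gained peak was present at 39.3% and a lost one at 5.36% of these genes, against 35.9% and 13.1% of all coding genes. At equal lengths the shares were 19.6% and 17.9%, near the 20.2% and 17.5% of all coding genes. RPS3 (175) and RPS20 (132) had gained peaks at promoters, and RPS27 (34) and RPSA (34) had lost ones. Cell cycle genes (38) had 16 gained and 6 lost peaks, and 3 and 9 at equal lengths, so their balance turned over, on few peaks. A gained peak was present at 28.9% and a lost one at 13.2% of them, and at 5.26% and 18.4% at equal lengths. CDK1 (83), CCNE1 (57) and CCND1 (41) led the gained peaks, and CDC20 (76), CDK1 (50) and AURKB (27) the lost ones.

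Marker lists of other cell states were short, so their shares rest on few genes. Neuroendocrine markers (20 genes) had 12 gained and 4 lost peaks, and 5 and 6 at equal lengths. A gained peak was present at 9 of them (45%) and a lost one at 4 (20%), against 35.9% and 13.1% of all coding genes. At equal lengths both shares were 25%, against 20.2% and 17.5%. Their peaks included CHGA, chromogranin A (74), DLL3 (65) and PEG10 (57), gained, and GRP (67), ONECUT2 (58) and NEUROD1 (50), lost. Basal and mesenchymal markers (20 genes) had 6 of each, and 2 and 8 at equal lengths, with a gained peak at 30% and a lost one at 15% of the genes. CDH3 (74), ITGB4 (57) and VIM, vimentin (41), were gained, and TP63 (67), CDH2 (58) and SNAI1 (14) lost. Genes of unrelated tissues (30) had 10 and 2, then 4 and 3, with OPN1SW (153, in a tRNA repeat), MBP (83) and APOA1 (49) gained and CYP3A4 (67) and NEUROD6 (34) lost. A gained peak was present at 23.3% of these unrelated genes, below the 35.9% of all coding genes. Peaks carry no expression, so the identity of the cells could not be checked with these markers.

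**Figure D4:**
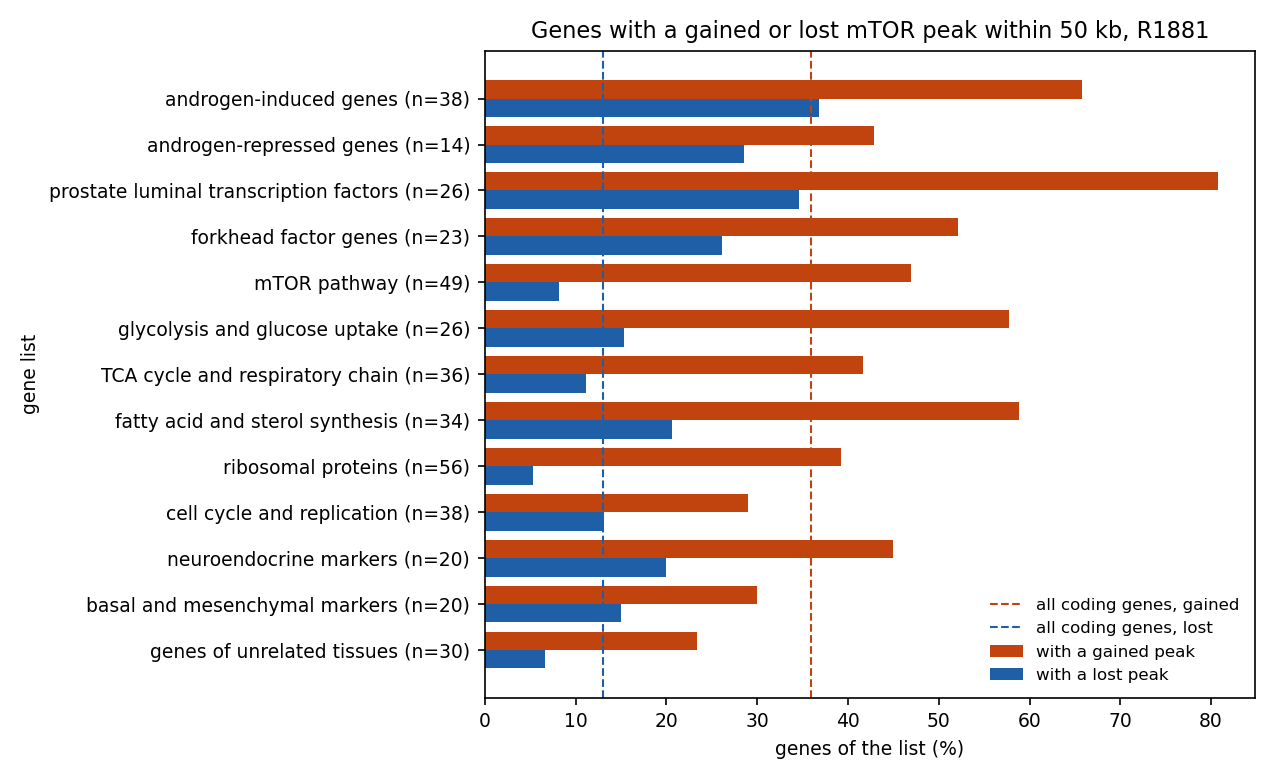
Percentage of the genes in each list with a gained or a lost peak within 50 kb of a start site in the R1881 libraries, lists as deposited, with dashed lines for all coding genes (35.9% gained, 13.1% lost). Luminal transcription factors reach 80.8% gained, androgen-induced genes have the highest lost share at 36.8%, and the mTOR pathway, TCA cycle, ribosomal protein and unrelated-tissue lists lie below the line for lost peaks.

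Promoters were also read directly from RefSeq, over windows of 250 bases before to 50 after the start site, for 15843 of the 20037 coding genes. A peak of both R1881 lists overlapped 1347 of them. A shFoxA1 R1881 peak alone overlapped 2189 (13.8%), and a shEV R1881 peak alone overlapped 267 (1.69%). At equal lengths the last 2 shares were 7.64% and 2.73%. Windows reached by shFoxA1 R1881 alone and by shEV R1881 alone had the same median GC content, 66.7%, and those in both lists had 66.3%, against 61.3% for windows in neither. The windows of the 2 changed sets were thus alike in median GC content, unlike the peaks as a whole. Coverage by shFoxA1 R1881 was 2.96% of windows under 45% GC and 30.1% of those at 75% and over, and by shEV R1881 1.79% and 13.9%.

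Short motifs were counted on both strands of the same windows. The forkhead motif TGTTTAC was in 2.10% of windows with a shFoxA1 R1881 peak alone (1.58 to 2.79), in 0.749% of those with a shEV R1881 peak alone (2 of 267, 0.206 to 2.69), and in 2.61% of all windows. The androgen response hexamer TGTTCT was in 7.45%, 8.99% and 11.2%. That hexamer is part of the full palindromic androgen response element, which was in none of the 15843 windows. The ETS motif CCGGAAG was in 21.4%, 18.4% and 14.2%, the NFY motif CCAAT in 34.2%, 33.7% and 36.4%, and the E-box CACGTG in 10.8%, 11.6% and 8.88%. For each motif the intervals of the shFoxA1-alone and shEV-alone windows overlapped, also at equal lengths, where TGTTTAC was in 2.81% and 2.08%. A match is a description of these letters and not a bound site.

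In the gene lists, promoter windows of the mTOR pathway were reached by both libraries at 7 of 41 genes (DDIT4, FLCN, LAMTOR2, NPRL2, RHEB, SESN1 and TSC1), or 17.1% against 8.5% of all windows. A shFoxA1 R1881 peak alone reached 8 (FNIP1, LAMTOR1, NPRL3, RRAGC, SESN2, TELO2, TFEB and TTI1), or 19.5% against 13.8% of all windows. A shEV R1881 peak alone reached none, where the share of all windows was 1.69%. With equal lengths shFoxA1 R1881 alone reached 2 of the 41 (4.88% against 7.64%), and both libraries still reached 7. LAMTOR1 encodes a Ragulator subunit, RRAGC a Rag GTPase and NPRL3 a GATOR1 subunit, which pass the amino acid signal to mTORC1 at the lysosome. Glycolytic promoters were reached by shFoxA1 R1881 alone at 7 of 23 genes (ENO1, GAPDH, LDHA, LDHB, PFKFB3, PFKL and PFKM), or 30.4%, and at 4 (17.4%) with equal lengths. Of these genes, ENO1, GAPDH and PFKFB3 had shared peaks and no gained peak assigned to them within 50 kb. Both libraries reached PGK1, and shEV R1881 alone reached SLC2A1, the main glucose transporter. Ribosomal protein promoters were reached by both at 11 of 45 genes (24.4%), by shFoxA1 R1881 alone at 8 (17.8%) and by shEV R1881 alone at RPSA. With equal lengths these counts were 8, 3 and 4, so shEV R1881 alone then reached more of them than shFoxA1 R1881 alone.

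The vehicle libraries, which share no sample with the R1881 pair, were used to see where the same peaks lay without androgen. Of gained peaks, 36.1% overlapped a shFoxA1 EtOH peak and 21.4% a shEV EtOH peak, and 57.5% were in neither. Of lost peaks, 30.5% overlapped a shFoxA1 EtOH peak, 22.9% a shEV EtOH peak, and 60.8% neither. Lost peaks were thus found more often in the other FoxA1-hairpin library than in the other empty-vector one, but the shFoxA1 EtOH list was also the longer, with 35121 peaks against 24948. With both EtOH lists at 24948 peaks, 13.2% of gained peaks were in shFoxA1 EtOH alone and 9.36% in shEV EtOH alone. For lost peaks the shares were 10.4% and 11.5%. Shared shFoxA1 R1881 peaks had 11.2% and 8.06%, so the lean of gained peaks toward shFoxA1 EtOH was not particular to them.

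Promoter peaks leaned to the FoxA1 hairpin in EtOH whichever way they had gone with R1881. With the EtOH lists at equal lengths, 21.9% of gained promoter peaks were in shFoxA1 EtOH alone and 8.84% in shEV EtOH alone. For lost promoter peaks the shares were 20% and 9.43%, and for shared ones 17.4% and 6.06%. Peaks of at least 60% GC gave 20.4% and 8.92% when gained, and 19.7% and 10.8% when lost. Peaks under 40% GC leaned the other way, with 11.6% and 12.8% when gained and 10.2% and 13.6% when lost, and young L1 peaks had 12.5% and 13.4% when gained. Among the 206 gained promoter peaks with a score of 100 or more, 111 (53.9%) were in both EtOH lists. Of all gained peaks, 14.9% were in both EtOH lists as deposited. Of peaks of any class gained among the 10000 highest of each list, 58.8% were, or 56.4% with the EtOH lists at equal lengths. That set can include peaks whose shEV R1881 partners were cut from the list. The 53.9% is thus not shown to be particular to promoters.

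**Figure D5:**
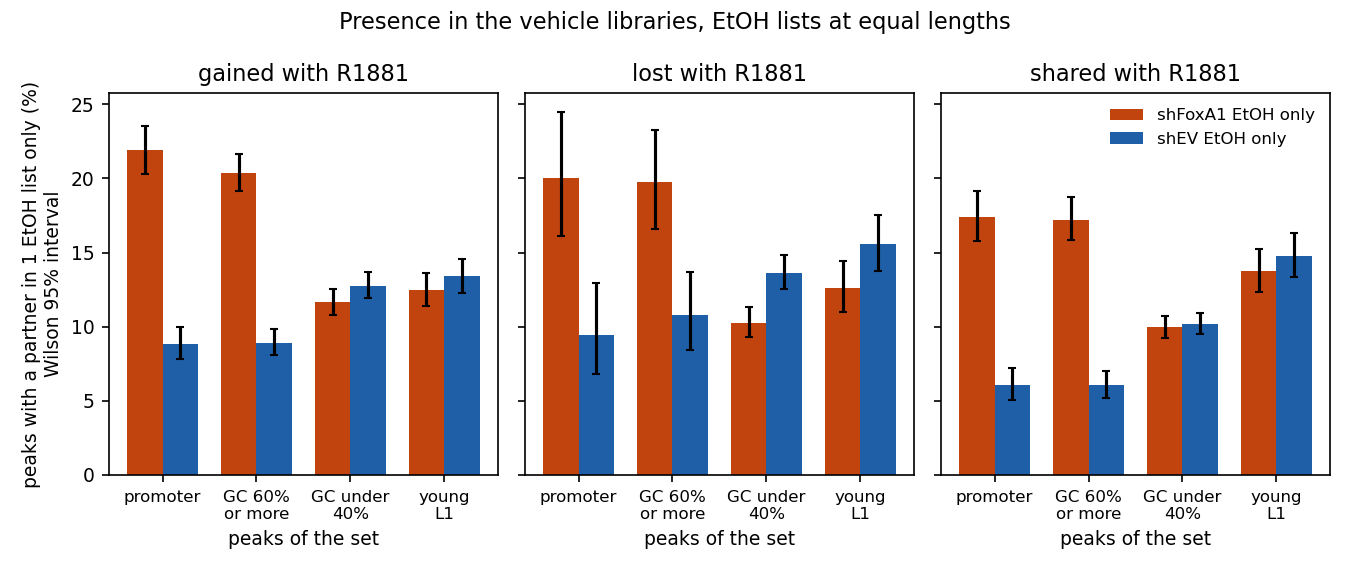
Percentage of gained (left), lost (middle) and shared (right) R1881 peaks that overlap a peak of shFoxA1 EtOH alone or shEV EtOH alone, EtOH lists at equal lengths, with Wilson 95% intervals (counting error only). Promoter and GC-rich peaks are found more often in shFoxA1 EtOH alone in all 3 sets (21.9% against 8.84% for gained promoters, 20% against 9.43% for lost ones), and peaks under 40% GC and young L1 peaks are not.

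Gained and lost peaks were also counted by chromosome at equal lengths. Apart from chromosomes 21, X and Y, the gained peaks per lost peak lay between 0.812 (chromosome 13) and 1.37 (chromosome 16). Chromosome 21 was lower, with 109 gained and 208 lost peaks (0.524), and chromosome X was higher, with 151 and 87 (1.74). Chromosome Y, with few peaks, had 12 gained and 17 lost (0.706).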

How the data were processed

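Peak lists of mTOR chromatin immunoprecipitation from LNCaP cells were used, 1 library per group. The 4 input libraries were left out. HOMER 4.11.1, MACS2, deepTools 3.5.0, BWA 0.7.12, Trimmomatic 0.36, Picard 2.0.1 and build hg38 are named in the submitters' processing notes. For the control, the threshold and duplicate handling, settings were not given in the sources used here. Per the file headers each list is HOMER peak annotation of 1 library, with start, end, class, nearest gene and distance as deposited. The peak score is the authors' own, with no stated definition, and it ranks peaks within a list only. The deposited fraction of G and C (0 to 1) describes the reference sequence and is printed as a percentage.

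Overlaps, shares and Wilson 95% intervals were computed with Python 3.11.15, pandas 2.3.3 and scipy 1.17.1, and the overlap code was tested on simulated data. A peak was given to its nearest gene of any type as deposited, within 50 kb. It was counted for gene lists only if that gene was protein-coding. Ties at the last score kept at equal lengths were broken in a seeded random order. All 410 symbols of the 13 gene lists were matched in RefSeq. Genes were named by score within each list: the 10 highest gained and lost peaks outside repeats, the 5 highest gained and lost promoter and shared peaks, the genes with most changed peaks, the 3 highest gained and lost peaks of each gene list, FOXA1 and 5 androgen targets. Some genes that this rule picks are not reported here. The members, lists and rules were chosen with earlier results of these data known. Motifs in peaks were not analysed because no genome was used, and RefSeq promoter windows stand in their place. Read depth is unknown. The alternatives were a 50% overlap, a gap of up to 500 bp, equal lengths, the 10000 highest peaks, peaks outside repeats, and gene distances of 10 and 100 kb.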

Additional observations from a re-analysis of the deposited data

How the results depend on the processing

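The order of GC content (gained above shared above lost) and of promoter shares (gained above lost) held under every alternative run. Counts and levels moved. At equal lengths there were 9996 gained peaks, 62.4% of shEV R1881 peaks were shared, the repeat shares were 61.9% of gained and 69.3% of lost peaks, promoters were 6.55% of lost peaks, the median GC was 45.1% for gained and 41% for lost peaks, 20.2% of coding genes had a gained and 17.5% a lost peak, and the net (gained minus lost peaks) of androgen-induced genes went from 36 to 0. Among the 10000 highest peaks of each list, 3125 were gained and 3108 lost, 68.9% were shared, promoters were 14.3% of gained and 3.89% of lost peaks, repeats 61.5% and 77.9%, and the median GC was 39.6% for lost and 43.1% for shared peaks. Outside repeats, 8902 were gained and 2051 lost, 74.9% were shared, promoters were 28.2% of gained and 17.1% of lost peaks, and the median GC was 56.1%, 45.7% and 54.6% for gained, lost and shared peaks. Requiring a 50% overlap gave 70.3% shared, 5.45% promoters and 70.3% repeats among lost peaks, a lost median GC of 40.7%, and 14.1% of coding genes with a lost peak. Allowing a gap of 500 bp gave 74% shared, 4.12% promoters and 72.9% repeats among lost peaks. Within 10 kb, 24.5% of coding genes had a gained and 5.92% a lost peak, and the androgen-induced net was 18. Within 100 kb the shares were 38.9% and 15.5%. At equal lengths the net reversed for androgen-repressed genes (-4, from 1), cell cycle genes (-6, from 10) and neuroendocrine markers (-1, from 8), and within 100 kb for androgen-repressed genes (-2). Equal lengths drop the lowest-scoring shFoxA1 peaks by construction. The cause of the other changes was not tested. Motif shares inside peaks were not run, since no genome of the files' build was used. No paired analysis was possible because each group has 1 library. Depth is unknown, so a peak missing from a list may lie just under its threshold.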
